A study of Mus musculus with 4 samples.

Results

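The GTPases of immunity-associated proteins (GIMAPs) form a family of GTP-binding proteins encoded in 1 cluster of genes and expressed mainly in lymphocytes. They sit on membranes of organelles such as lysosomes, the endoplasmic reticulum and mitochondria, and the loss of single members shortens the life of mature T cells in mice and rats. Transcripts of several members are known to increase as thymocytes pass from the CD4+CD8+ double-positive (DP) stage to mature single-positive T cells. The 8 mouse genes Gimap1, Gimap3, Gimap4, Gimap5, Gimap6, Gimap7, Gimap8 and Gimap9 were taken as the members. Every non-control array probe whose design name equals a member was used, which gave 10 probes for 7 genes, of 41174 probes and 28095 gene names on the array. No probe carries the name Gimap8, so that gene was not analysed here. The family was selected on log2 differences between the genotypes in these same 4 arrays, so its genotype differences are given as a description. The members entered the fit over all genes, and no p-value of a member is used as support.

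The study asked how loss of the deubiquitinase USP8 alters expression in DP thymocytes, and used 4 arrays with 8 mice in all. The control group USP8ff carried loxP-flanked Usp8 alleles without Cre, and the group USP8ff_CD4Cre carried the same alleles with Cre driven from Cd4 regulatory sequences, which are active by the DP stage. All mice were untreated, sex-matched littermates of 6 to 12 weeks, and RNA of sorted DP cells from 2 mice was pooled for each sample, with 2 pools per group. No group had Cre without the floxed alleles, so effects of Cre and of the deletion cannot be told apart, and the spread measured is that between pools. In these bulk samples fewer cells of a type and less RNA per cell cannot be told apart either.

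Between 18533 and 20147 probes per array were well above background by the scanner's flag, and no spot was saturated. With 2 arrays per group, their number limits the precision. Usp8 was the check of the labels. On the probe measured on all 4 arrays it stood at -0.23 and -0.40 (log2, relative to the 75th percentile of the array) in the USP8ff pools and at -1.03 and -1.23 in the USP8ff_CD4Cre pools, that is 56.9% of the control level. Its other probe was below that flag on every array. The 15 tested DP thymocyte markers had a median log2 difference of -0.06, with Rag2 at -0.33 ± 0.13 (SE), Cd1d1 at -0.25 ± 0.12, Rag1 at -0.19 ± 0.11 and Arpp21 at -0.17 ± 0.11. Of the 15, 6 had no overlap with the USP8ff_CD4Cre pools lower (16.3% of all genes tested did) and 3 with them higher (24.3% of all did). Those 3 were Tcf7 (0.16 ± 0.13, SE), Dntt (0.10 ± 0.10) and Cd8b1 (0.09 ± 0.11).

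The probes lie between positions 48627839 and 48715093 of chromosome 6 in mm9, a span of 87.3 kb, in the order Gimap9, Gimap4, Gimap6, Gimap7, Gimap1, Gimap5 and Gimap3. Their place in exons was not analysed here. Gimap6 and Gimap3 are probed on the minus strand and the others on the plus strand. The probes below belong to the gene with the largest genotype difference among those measured in a whole group (Gimap4), to the second transcript of Gimap5, and to a bright (Gimap9) and a dim (Gimap7) member. They are 60 bases long, and no run of more than 9 bases is shared between probes of different members. Whether a probe also binds the transcript of another member was not tested.
Gimap4 (chr6:48640866-48640925, plus strand): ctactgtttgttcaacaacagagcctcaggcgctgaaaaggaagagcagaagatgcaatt
Gimap5, accession AK087160 (chr6:48697390-48697449, plus strand): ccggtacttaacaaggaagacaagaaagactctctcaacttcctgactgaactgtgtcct
Gimap7, accession NM_146167 (chr6:48674271-48674330, plus strand): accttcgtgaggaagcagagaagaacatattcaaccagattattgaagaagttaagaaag
Gimap9 (chr6:48627839-48627898, plus strand): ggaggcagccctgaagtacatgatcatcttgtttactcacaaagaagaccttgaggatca

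Levels below are log2 processed signals relative to the 75th percentile of the same array, and differences are USP8ff_CD4Cre minus USP8ff on that log2 scale. Of the 7 members with a probe, Gimap4 was lower in both USP8ff_CD4Cre pools, where it was no longer well above background. Gimap5 had smaller negative differences on both of its probes. Gimap1, Gimap6 and Gimap9 were bright on every array and had overlapping groups, while Gimap3 and Gimap7 were dim and brightest in USP8ff replicate 2. No Gimap gene was called in the genotype comparison, nor any other of the 13062 genes tested (0 genes, 0%), by limma's moderated test with Benjamini-Hochberg adjustment, whose smallest adjusted p was 0.29. Unadjusted p-values under 0.05 were found for 970 genes (7.43%), of which 452 (3.46% of all) were lower in USP8ff_CD4Cre.

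**Figure D1:**
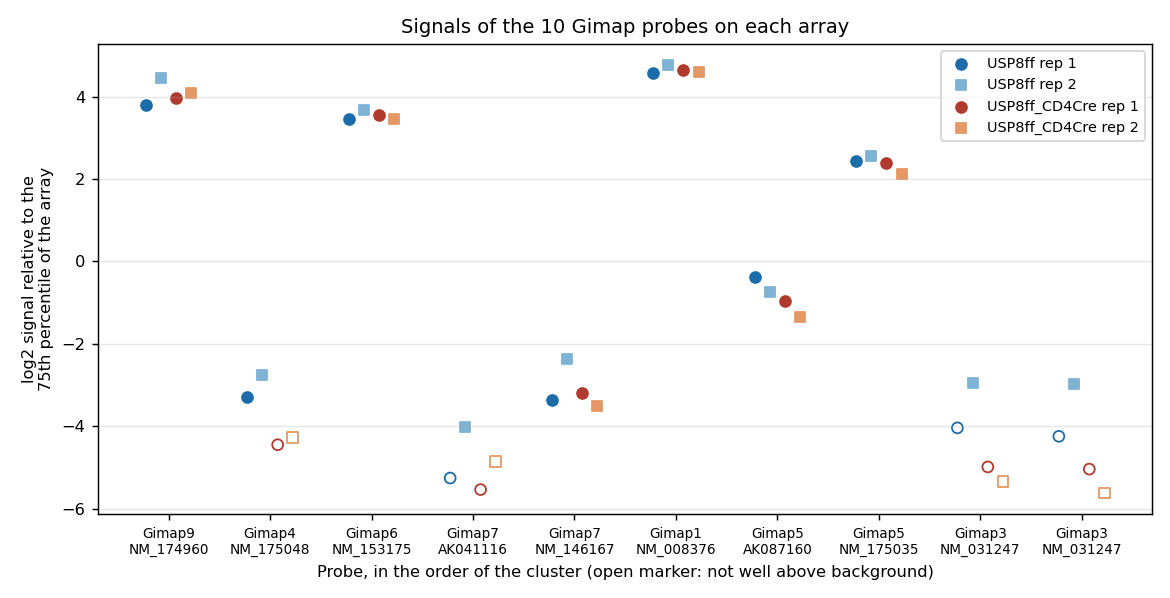
Log2 processed signal (y axis, relative to the 75th percentile of the array) of the 10 Gimap probes (x axis, in the order of the cluster) on the 4 arrays, with 1 point per array and open markers where the probe was not well above background. The probes of Gimap4, Gimap5 and Gimap3 are lower on both USP8ff_CD4Cre arrays than on both USP8ff arrays, whereas the points of Gimap1, Gimap6 and Gimap9 overlap. Gimap3 was well above background on USP8ff replicate 2 alone.

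Gimap4, which has been linked to the control of T cell death, was measured at -3.30 and -2.76 (log2 signal) in USP8ff replicates 1 and 2, against -4.45 and -4.27 in USP8ff_CD4Cre. The groups did not overlap, with a gap of 0.97 between the lower control pool and the higher USP8ff_CD4Cre pool. The underlying processed signals of the control pools were 59.9 and 87.8 units, and those of the USP8ff_CD4Cre pools 24.3 and 29.0 units, with scanner error estimates of 13.3, 12.7, 9.56 and 7.62 units, so the gene was dim even where it was measured. Its group means were -3.03 ± 0.38 (SD, n = 2) in USP8ff and -4.36 ± 0.13 (SD, n = 2) in USP8ff_CD4Cre, a difference of -1.33 ± 0.21 (SE). Neither USP8ff_CD4Cre array had the probe well above background, so the fold is given as an approximate bound, at least 2.19-fold lower. For that bound each dim array was given the lowest signal that any probe had above background there, or the signal of Gimap4 itself where this was higher. On USP8ff_CD4Cre replicate 2 Gimap4, at -4.27, lay above that lowest signal of -4.49 without passing the flag, so the bound is not strict. The difference was -0.50 with the normexp background correction, which adds a constant to every signal, and between -1.61 and -1.06 with 1 array left out.

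The authors' deposited table of genotype differences lists 78 probes, and 1 of them belongs to a Gimap gene. The authors' deposited table gives that Gimap4 probe as 2.51-fold down, with a p-value of 0.0442. The sources used here do not give its test or which genotype was the reference.

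Gimap3, a close relative of Gimap5, has been implicated with it in T cell survival. On its first probe (chr6:48715024-48715083) the control pools had log2 signals of -4.04 and -2.95, and the USP8ff_CD4Cre pools -4.99 and -5.35. On its second (chr6:48715034-48715093) they were -4.25 and -2.97 against -5.04 and -5.62. Both probes were thus lower in each USP8ff_CD4Cre pool than in each control pool, but they share 50 of their 60 bases and are not separate measurements of the gene. Only USP8ff replicate 2 was well above background on either probe, so Gimap3 did not enter the fit. Set against the floor used for Gimap4, the mean of both control arrays was 1.71-fold and 1.58-fold higher on the 2 probes, but that mean takes in USP8ff replicate 1, which was not above background, so neither is a strict bound.

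Gimap5, whose loss causes lymphopenia in rodents, was measured on all 4 arrays by both of its probes. On the brighter probe (NM_175035) the control pools had log2 signals of 2.45 and 2.55, and the USP8ff_CD4Cre pools 2.39 and 2.12. Its difference was -0.24 ± 0.14 (SE), and the groups were separated by a gap of only 0.05. The difference was -0.38 without USP8ff_CD4Cre replicate 1 and -0.11 without USP8ff_CD4Cre replicate 2. The second probe (AK087160) had -0.38 and -0.73 in USP8ff and -0.96 and -1.35 in USP8ff_CD4Cre, a difference of -0.60 ± 0.20 (SE, from the fit over all 19038 kept probes). The gap between the groups was 0.22 on that probe, which thus had the larger difference. The order of the control pools was reversed between the 2 Gimap5 probes, with replicate 2 the higher on the first and replicate 1 on the second. A difference between the probes was not tested.

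Gimap7, whose protein is known to pair with other GIMAPs, gave log2 signals on its kept probe of -3.37 and -2.37 for the control pools, beside -3.18 and -3.50 for the USP8ff_CD4Cre pools. The groups overlapped, since USP8ff replicate 1 lay between the USP8ff_CD4Cre pools. The difference of -0.47 ± 0.34 (SE) was smaller than the SD of 0.70 between the control pools, and without USP8ff replicate 2 it was 0.02. The other Gimap7 probe (AK041116) was well above background on USP8ff replicate 2 alone, at -4.03, against -5.26 in USP8ff replicate 1 and -5.54 and -4.86 in USP8ff_CD4Cre.

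The 3 members with the least difference were bright. Gimap1, needed for the survival of mature lymphocytes, had control pools at a log2 signal of 4.58 and 4.76 and USP8ff_CD4Cre pools at 4.65 and 4.58. Gimap6, linked to autophagy through its binding to a GABARAP protein, had 3.46 and 3.68 in USP8ff and 3.54 and 3.45 in USP8ff_CD4Cre. In both genes USP8ff replicate 2 was the highest array and the other 3 lay close together. The differences were -0.05 ± 0.12 (SE) for Gimap1 and -0.07 ± 0.13 for Gimap6. Gimap9 had 3.80 and 4.44 in USP8ff and 3.96 and 4.09 in USP8ff_CD4Cre. Its control pools enclosed both USP8ff_CD4Cre pools, and its difference of -0.10 ± 0.23 (SE) was smaller than the SD of 0.45 between them.

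**Figure D2:**
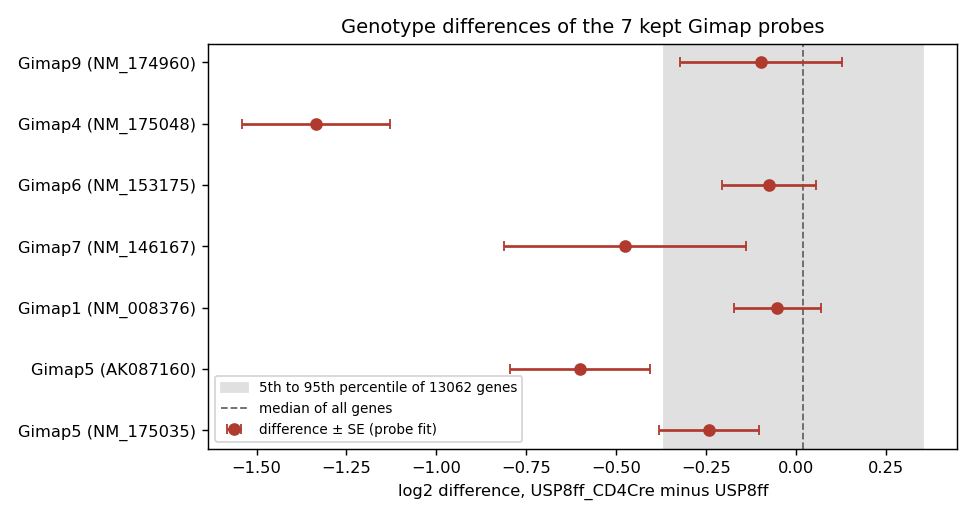
Log2 differences (x axis, USP8ff_CD4Cre minus USP8ff) of the 7 kept Gimap probes (y axis), with bars of 1 SE from the fit over all kept probes, over the range from the 5th to the 95th percentile of the 13062 genes (grey) and their median (dashed). Gimap4, Gimap7 and the second Gimap5 probe lie below the grey range of -0.37 to 0.36, and the other 4 probes lie within it.

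Of the 8 members, 6 passed the filter on dim probes, which asked that a probe be well above background throughout 1 genotype or the other. A member that passed only through USP8ff, as Gimap4 did, had to be lower in USP8ff_CD4Cre, so counts over these 6 lend it no support. All 6 differences were negative, where 45.2% of the 13062 genes had a negative difference, and 2 of the 6 (Gimap4 and Gimap5) had no overlap with both USP8ff_CD4Cre pools lower, against a background of 16.3%. The median over the 6 was -0.17, beside 0.02 over all genes tested.

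The count of negative differences and the median rested on USP8ff replicate 2. All 6 tested members had their highest signal on that array, as did 27.5% of all genes tested, and of the 10 probes 9 did, the exception being the second Gimap5 probe. Without USP8ff replicate 2 the median difference of the 6 was 0.03 and only 2, Gimap4 (-1.06) and Gimap5 (-0.19), were negative. Without USP8ff replicate 1 the median was -0.36, and all 6 were negative. For Gimap1, Gimap6, Gimap7 and Gimap9 the sign of the difference therefore turned with 1 control pool.

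**Figure D3:**
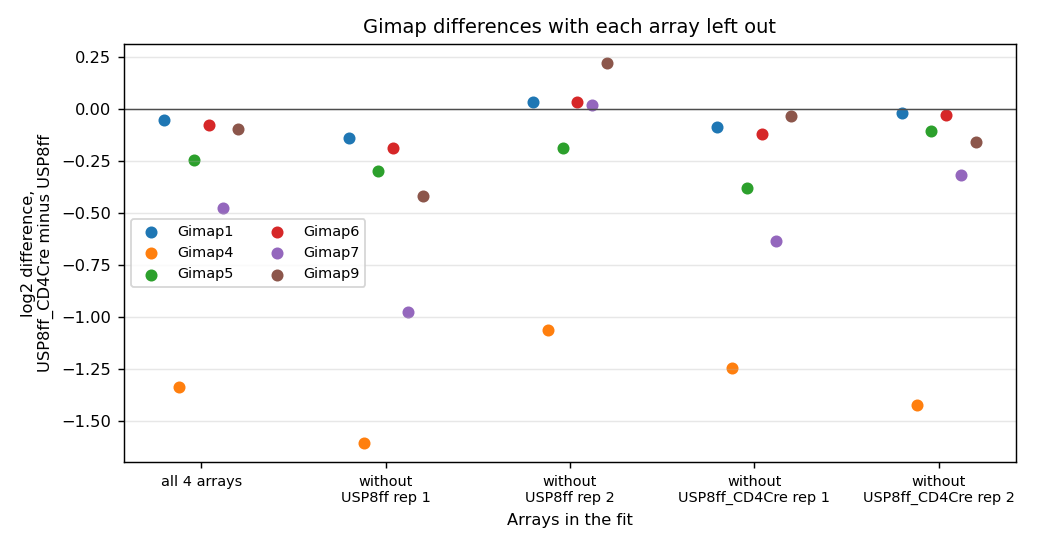
Log2 difference (y axis, USP8ff_CD4Cre minus USP8ff) of the 6 tested Gimap genes with all 4 arrays and with each array left out in turn (x axis), 1 point per gene. Gimap4 stays between -1.61 and -1.06, and Gimap1, Gimap6, Gimap7 and Gimap9 lie above 0 only where USP8ff replicate 2 is left out.

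The regions upstream of the Gimap start sites were read from RefSeq (GRCm38.p6, a later build than that of the probes), as the 250 bases before each annotated start, in 9 windows for the 8 genes. They are shown for Gimap4 and Gimap5, the tested members without overlap between the groups, and for Gimap6, which had little difference. Capitals mark matches, on either strand, to short binding motifs of T cell transcription factor families.
Gimap4 (chr6:48684328-48684577, plus strand): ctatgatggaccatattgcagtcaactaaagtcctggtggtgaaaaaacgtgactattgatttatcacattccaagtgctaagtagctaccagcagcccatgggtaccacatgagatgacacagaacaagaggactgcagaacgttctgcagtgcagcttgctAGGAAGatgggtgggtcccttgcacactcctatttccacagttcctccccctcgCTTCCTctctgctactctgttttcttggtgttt
Gimap5 (chr6:48745947-48746196, plus strand): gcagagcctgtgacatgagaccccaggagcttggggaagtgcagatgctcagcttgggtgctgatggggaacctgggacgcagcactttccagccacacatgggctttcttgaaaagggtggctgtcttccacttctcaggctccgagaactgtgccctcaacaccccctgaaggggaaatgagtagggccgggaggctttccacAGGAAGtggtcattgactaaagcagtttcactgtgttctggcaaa
Gimap6 (chr6:48708245-48708494, minus strand): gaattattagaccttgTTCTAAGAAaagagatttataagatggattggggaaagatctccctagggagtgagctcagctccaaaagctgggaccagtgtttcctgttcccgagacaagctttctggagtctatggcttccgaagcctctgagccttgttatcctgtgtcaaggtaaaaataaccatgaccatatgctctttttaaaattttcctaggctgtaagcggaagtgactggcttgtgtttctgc

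AGGAAG, the only form of the ETS motif searched, was found in 7 of the 9 Gimap windows, and in 29.5% of all 32851 RefSeq windows of that length. Besides Gimap4 and Gimap5 these were windows of Gimap1, Gimap3, Gimap7, Gimap8 and Gimap9. The groups of Gimap1, Gimap7 and Gimap9 overlapped. Gimap4 had 2 matches, which began 87 and 33 bases before the start, and Gimap5 had 1 at 45 bases. The Gimap6 window held no AGGAAG, but it holds cggaag, and forms of the ETS motif other than AGGAAG were not searched. Its capitals are the STAT pattern TTCNNNGAA, which was found in 2 of the 9 Gimap windows and in 7.02% of all windows. The FOXO motif GTAAACA was found in 1 Gimap window, that of Gimap3, and in 3.17% of all, and the E protein motif CAGGTG in 1, that of Gimap9, and in 17.2% of all. None of the 9 windows held the RUNX motif TGTGGTT (4.40% of all windows), the KLF motif CCACACCC (3.20%), the TCF and LEF motif CTTTGAT (3.21%), the Ikaros motif TTGGGAA (4.77%) or the NF-kappaB motif GGGANTTCC (1.43%). The sequence TATAAA was found, on either strand, in 1 Gimap window and in 12.4% of all. That match lay in the Gimap6 window on the opposite strand, 219 bases before the start, and is not in capitals. The motif occurrences are descriptions of sequence, and binding was not measured.

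Other genes of T cell maturation were taken from a list of genes that thymocytes gain or regulate as they mature and leave the thymus. Of its 28 tested genes 0 were called in either direction, 21 had negative differences (45.2% of all genes tested did), and the median difference was -0.10. No overlap was found for 14 with the USP8ff_CD4Cre pools lower (background 16.3%) and for 6 with them higher (background 24.3%). The gene and marker lists were chosen with earlier results of these data known, so counts over them are descriptions and lend no support. Il7r, the interleukin-7 receptor alpha chain that sustains T cell survival, was at least 5.01-fold lower, and Itgae, an integrin chain, at least 4.02-fold lower. Both are approximate bounds, with the floor used for Gimap4. Ms4a4c, a lymphocyte membrane protein gene, had a difference of -1.10 ± 0.10 (SE) and Cd53, a tetraspanin gene, -1.003 ± 0.16. These 4 were named for the smallest unadjusted p in the list, so the absence of overlap in them is no separate result. Il7r and Itgae passed the filter on dim probes only through USP8ff, so they had to be lower in USP8ff_CD4Cre. The 6 without overlap and higher were Vim (0.58 ± 0.16, SE), Lgals1 (0.504 ± 0.115), Crip1 (0.43 ± 0.15), Klf2 (0.23 ± 0.12), Cd5 (0.07 ± 0.11) and Cd69 (0.06 ± 0.10). Of the 28, 18 had their highest signal on USP8ff replicate 2, and without that array the median was -0.06 with 16 negative, against -0.20 without USP8ff replicate 1.

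The profile over the 4 arrays most like that of Gimap4 was sought among 10875 other tested genes with a RefSeq symbol, by the root mean square distance between log2 values centred on each gene's mean. The nearest were Mpeg1, a macrophage gene, the protease gene Tmprss4, the collagen gene Col18a1, the G protein subunit gene Gng2 and Ccr7, a chemokine receptor gene of mature thymocytes. Mpeg1, at a distance of 0.127, had levels of -2.5045 and -1.8667 in the control pools and of -3.3917 and -3.1637 in the others. Ccr7, the last of the 5 at 0.199, had levels of -0.51 and 0.03, beside -1.29 and -1.66, and a difference of -1.24 ± 0.23 (SE). The differences were -1.35 ± 0.19 for Tmprss4, -0.997 ± 0.22 for Col18a1, which passed the background flag on only 1 USP8ff_CD4Cre array, and -0.99 ± 0.22 for Gng2. As for Gimap4, replicate 2 was the higher control pool in each of the 5, an order that entered the distance by which they were chosen. With 4 arrays such a likeness says only that the genes share their 2-against-2 pattern.

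Genes of cell death and survival, a process in which GIMAPs have been placed, were compared next. Of 11 tested members of the BCL2 family 0 were called and 7 had negative differences (45.2% of all genes tested did). The median was -0.04 (0.0046 without USP8ff replicate 2). Bmf, which promotes death, had -0.94 ± 0.26 (SE), with levels of 3.92 and 4.66 in USP8ff against 3.28 and 3.43 in USP8ff_CD4Cre. Pmaip1, of the same class, had 0.84 ± 0.50 with overlapping groups, Bak1 0.16 ± 0.11 and Bad -0.18 ± 0.13. Bcl2 itself, an inhibitor of death, had -0.02 ± 0.14.

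The interferon-inducible GTPases (the IRG, guanylate-binding and Mx proteins) are another group of immune GTPases, and were compared with the Gimap genes. Of 12 tested, 0 were called, and 9 had negative differences (45.2% of all genes tested did). Of the 12, 6 had no overlap with the USP8ff_CD4Cre pools lower (background 16.3%), and the median was -0.12 (-0.07 without USP8ff replicate 1). The differences were -0.51 ± 0.23 (SE) for Mx2 and -0.26 ± 0.13 for Gbp4. Iigp1 had -1.20 ± 0.61, but passed the background flag on only 1 USP8ff_CD4Cre array. Gbp3 had 0.42 ± 0.23 with overlapping groups. A difference between the families was not tested.

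Markers of other cells that also carry GIMAP transcripts or could enter a sort were measured beside the Gimap genes, and those called not tested were below the filter on dim probes or had no probe of that name. Of 11 NK and innate T cell markers on the array 5 were tested, and 3 of them, Nkg7, Il2rb and Prf1, had no overlap with the USP8ff_CD4Cre pools lower (background 16.3%). The other 2, Gzma and Tbx21, had no overlap with those pools higher (background 24.3%). The differences were -2.09 ± 0.18 (SE), -2.02 ± 0.34 and -0.86 ± 0.21 for the first 3, and 0.42 ± 0.20 for Gzma and 0.15 ± 0.10 for Tbx21. Il2rb passed the background flag on only 1 USP8ff_CD4Cre array. The summed level of the 5, relative to the 75th percentile, was 4.28 to 4.37 in USP8ff and 3.94 to 5.29 in USP8ff_CD4Cre, and Ncr1, Klrb1c and Zbtb16 were not tested. Such sums are of unlogged levels, so the brightest marker weighs most. Here that was Gzma, at log2 1.53 and 1.35 in USP8ff and 1.59 and 2.12 in USP8ff_CD4Cre. In the sums below it was Tnfrsf18 for regulatory and effector T cells and Cd79b for B cells.

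Of the regulatory and effector T cell markers 5 of 10 were tested, with Foxp3, Il2ra and Ctla4 not tested. Their summed level was 22.0 to 25.1 in USP8ff and 19.1 to 19.3 in USP8ff_CD4Cre, and Gpr83 had -1.94 ± 0.30 (SE), Icos -0.59 ± 0.18 and Tnfrsf18 -0.39 ± 0.13, with Ikzf2 at 0.23 ± 0.12. Gpr83 too passed the background flag on only 1 USP8ff_CD4Cre array. Of the macrophage and dendritic cell markers 5 of 14 were tested, with a summed level of 2.18 to 2.48 in USP8ff and 1.27 to 1.59 in USP8ff_CD4Cre. Lyz2, the brightest of them by its mean, had 0.02 and -0.11 in USP8ff and -0.54 and 0.08 in USP8ff_CD4Cre. Its groups overlapped, with a difference of -0.19 ± 0.22 (SE). Ctss had -0.37 and 0.08 against -1.92 and -2.29, a difference of -1.96 ± 0.21. Mpeg1 had -1.09 ± 0.23 and Cd68 -0.12 ± 0.13. C1qb, not above background on 1 of the control arrays, had 0.25 ± 0.14. Csf1r, Adgre1, Itgam and Itgax were not tested. The part of such cells in the Gimap4 difference was not tested.

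B cell markers, of which Cd79b (-0.08 ± 0.12, SE) and Blnk (-0.75 ± 0.38) were tested, had overlapping groups, with Ms4a1 and Pax5 not tested. Their summed level was 6.16 to 6.62 in USP8ff and 5.17 to 6.08 in USP8ff_CD4Cre. Of the endothelial markers only Pecam1 was tested (-0.10 ± 0.10), and Cdh5, Kdr and Tie1 were not tested. Of thymic stroma, Epcam had -0.47 ± 0.13 (SE) and Krt5, not above background on 1 of the control arrays, 0.22 ± 0.12, of erythroid cells, Car1 had -0.30 ± 0.19 and Hba-a2 0.81 ± 0.52, and of granulocytes, Mpo had -0.14 ± 0.10.

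**Figure D4:**
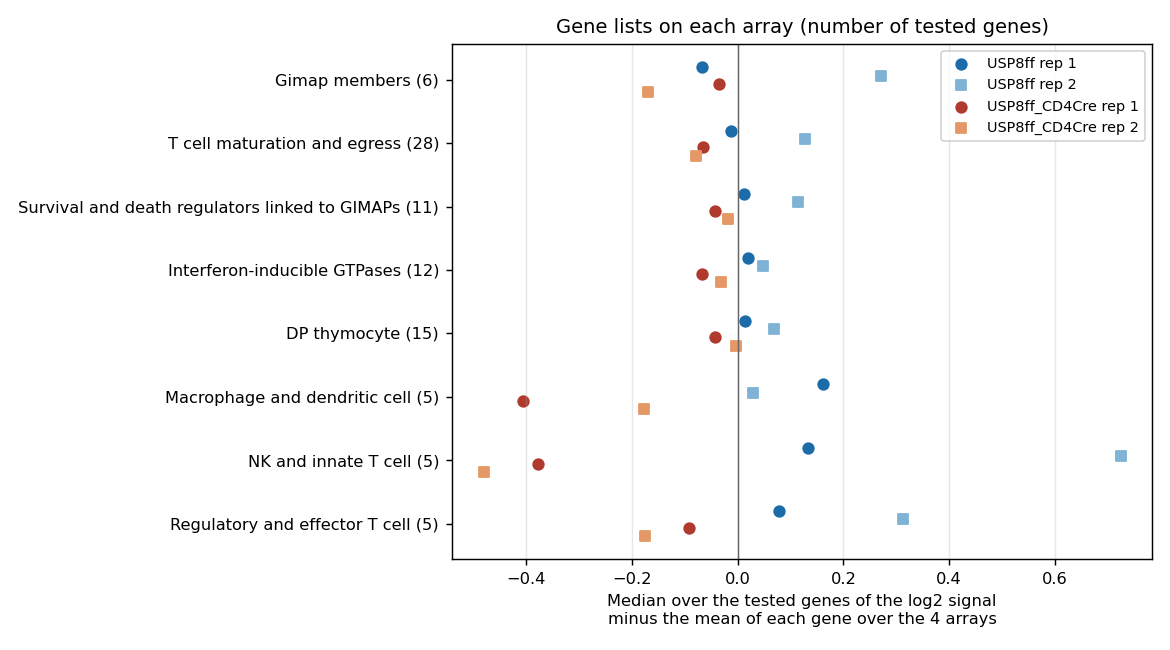
Median over the tested genes of a list (x axis) of the log2 signal minus each gene's mean over the 4 arrays, 1 point per array, for lists with at least 5 tested genes (y axis, number in brackets). The Gimap median is 0.27 on USP8ff replicate 2 and between -0.17 and -0.04 on the other 3 arrays, while the medians of the other 7 lists are higher on both USP8ff arrays than on both USP8ff_CD4Cre arrays.

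The genes beside the cluster were read in the same way, within 500 kb of the outermost Gimap probes. Of 39 other probes there, 17 for 12 genes or transcripts passed the filter. Of the 17 probes, 12 had negative differences (45.2% of all genes tested did). Their differences ran from -0.78 to 0.12 with a median of -0.15. None was called (fit over all 19038 kept probes, 0 called). Zfp467, a zinc finger gene, had the lowest, with -3.33 and -2.45 in USP8ff and -3.43 and -3.91 in USP8ff_CD4Cre and a difference of -0.78 ± 0.32 (SE). Tmem176a and Tmem176b, which encode membrane proteins of myeloid and lymphoid cells and lie beyond Gimap3, had -0.53 ± 0.23 and -0.18 ± 0.19 on the 2 Tmem176a probes and -0.22 ± 0.16 for Tmem176b. The first Tmem176a probe passed the background flag on only 1 USP8ff_CD4Cre array. A transcript with the design name AI854703, on the other side of the cluster, had -0.54 ± 0.24.

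The remaining kept neighbours had differences between -0.29 and 0.12. Krba1 had -0.29 ± 0.14 (SE) and -0.15 ± 0.20 on its probes, Lrrc61 -0.26 ± 0.18, Repin1 -0.03 ± 0.12, and the mitochondrial ribosome assembly gene Malsu1 0.05 ± 0.11 and 0.09 ± 0.11. Tra2a, a splicing factor gene, had between -0.15 and 0.12 on its 3 probes. The transcripts with the design names NAP032011-1, which lies within the cluster, AK041055 and AK081375 had 0.11 ± 0.11, 0.10 ± 0.14 and -0.10 ± 0.16. No kept neighbour reached the Gimap4 difference of -1.33. The family was selected on such differences and Gimap4 was its lowest tested member, so this lends no support. Among those not kept, Zfp862-ps, singled out after its values were seen, was above background on USP8ff replicate 2 alone (-3.36), as Gimap3 was, with -4.89, -5.91 and -5.60 on the other 3 arrays. Its difference of -1.63 was larger than that of Gimap4.

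**Figure D5:**
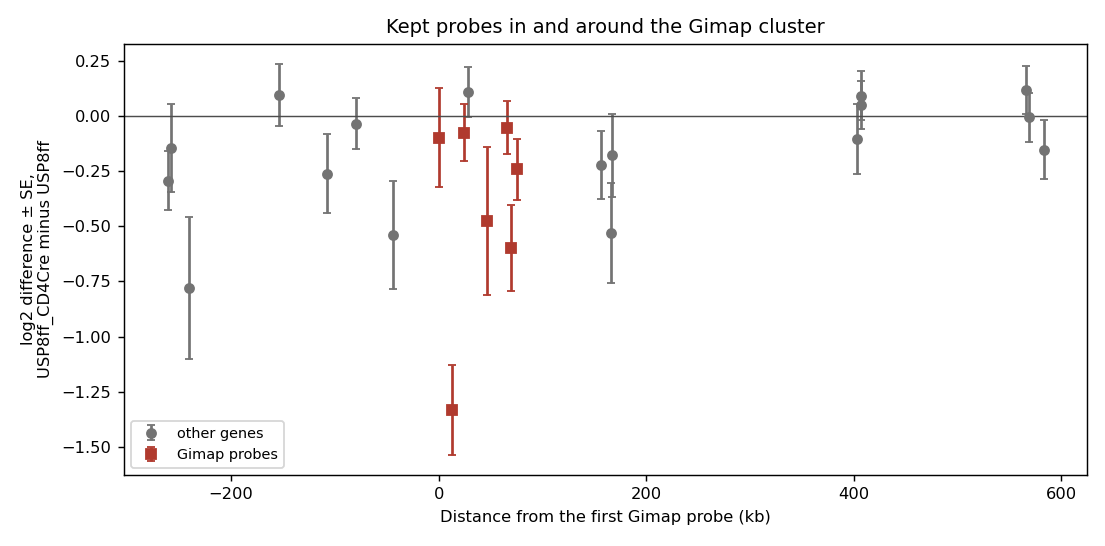
Log2 difference with bars of 1 SE (y axis, USP8ff_CD4Cre minus USP8ff) of the kept probes against their distance in kb from the first Gimap probe (x axis), for Gimap genes (squares) and other genes (circles). Gimap4, at -1.33, lies below every other kept probe of the region, of which the lowest is Zfp467 at -0.78. It was the lowest tested member of a family selected on such differences.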

How the data were processed

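The deposited files hold spot intensities of 1-colour (Cy3) Agilent arrays. All 4 arrays lay on 1 slide. Per the file headers, Feature Extraction 10.7.3.1 made the processed signals by background subtraction and spatial detrending, with no normalization between arrays. Per the labels' protocols, cRNA was made from 500 ng of RNA. A table the authors deposited gives an absolute fold and a p-value per probe, by a test that the sources here do not state. Another table's 4 columns of per-sample values went unused, since their names match no label.

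Processed signals were taken to log2, and each array's 75th percentile over non-control spots was subtracted. Outlier spots were left out, and spots of a probe were averaged. The filter kept 19038 probes that were well above background throughout 1 genotype or the other, the brightest standing for its gene (13062 genes). Names came from RefSeq by accession for 26690 of 41174 probes, and from the array design, which can be old, for the rest. The comparison used lmFit and eBayes of limma 3.58.1 (R 4.3.3), with Benjamini-Hochberg adjustment and a threshold of 0.05. The fit was tested on simulated data. Members and gene lists were chosen with earlier results of these data known. Named genes were the members, Usp8, up to 4 genes per list with the smallest unadjusted p, the 5 nearest to Gimap4, and neighbours within 500 kb that were well above background. Bcl2, Tcf7, Dntt, Cd8b1, Tbx21, Vim, Lgals1, Crip1, Klf2, Cd5, Cd69, Lyz2, the markers not tested and Zfp862-ps were added after their values were seen. Alternatives changed scaling, background, filter, probe choice, outlier spots, block, trend and arrays. Figures were drawn with matplotlib 3.10.9.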

Additional observations from a re-analysis of the deposited data

How the results depend on the processing

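Under all 14 alternatives limma called 0 genes, with between 396 (without USP8ff_CD4Cre replicate 2) and 1338 (replicate block) at an unadjusted p under 0.05, against 970. The median difference of the tested Gimap genes was -0.169 with all arrays, between -0.259 and -0.0966 under the other settings that kept all arrays, and between -0.356 and 0.0293 with 1 array left out, the highest value being without USP8ff replicate 2. In single genes, 79 of 83 differences were negative, and the 4 others, Gimap1 (0.036), Gimap6 (0.0358), Gimap7 (0.0229) and Gimap9 (0.223), were without USP8ff replicate 2. Gimap4 went from -1.33 to -0.495 with normexp, which adds a constant to every signal. It has no value with the filter on all 4 arrays, which it did not pass. Gimap5 went to -0.421 with the mean of its probes, which had -0.24 and -0.60. Why 4 signs turned without USP8ff replicate 2 was not tested. The replicate numbers are not said to mark pairs. With the replicate block the differences were the same and 0 genes were called, and the same-numbered deviations correlated at 0.32. Gimap3 passed only with no filter. Medians of other lists with each array left out were added after the data were seen. Signals near background limit Gimap3, Gimap4 and Gimap7.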
